A study of Mus musculus with 6 samples.

Results

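The genes described here drive and mark the cell cycle from G1 to mitosis in mouse skin. The list has 42 genes: 8 G1 cyclins and kinases, 4 inhibitors of cyclin-dependent kinases (CDKs), 11 S phase genes and 19 mitosis genes. Of these, 41 have a probe set that is annotated to no other gene, among 18193 such genes on the array. The array signal of Ccnb1 was not analysed here. A gene with several probe sets is represented by the one with the highest mean over all 6 arrays. The filter on dim genes kept 40 members and 11670 genes in all. The skin came from 3 wild-type and 3 knock-in mouse samples, all on the C57BL/6 background, with 1 array per sample. The knock-in carries the genotype code KA, and the labels name neither the altered gene nor the cells that express it. They give no age, sex, body site or hair cycle stage, and do not say whether the samples are separate animals, so p-values measure the spread between these arrays only. Values are the deposited MAS5 signals, and differences are knock-in minus wild-type in log2(signal + 16), given with standard errors from limma and with p-values adjusted over all 11670 genes (Benjamini-Hochberg, threshold 0.05).

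A cell enters the cycle when D-type cyclins, bound to Cdk4 or Cdk6, phosphorylate the retinoblastoma proteins and so release E2F factors. E-type cyclins with Cdk2 then open S phase, in which the Mcm helicase unwinds the genome and nucleotide-making enzymes supply its copying, and cyclins A and B with Cdk1 lead into mitosis. CDK inhibitors of the Cip/Kip and INK4 families hold these kinases back. In skin, most dividing cells lie in the basal layer of the epidermis and in the matrix of growing hair follicles. The D-type cyclins follow growth signals, whereas S phase and mitosis genes peak with the phase they serve, so the latter mark dividing cells.

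The arrays carried the signal of epidermal keratinocytes in both groups, with marker sums from 42671 to 48198 in wild-type and from 41362 to 53541 in knock-in. Of these 9 markers 2 rose (Krt5 and Krt14) and 3 fell (Krt15, Dsg1a and Ivl), with a median of -0.14. Rose and fell here mean past the adjusted p threshold, as 14.8% (higher) and 16.3% (lower) of all genes tested were. Y-linked genes were bright on each wild-type array and Xist on each knock-in array, so sex and genotype cannot be told apart in any difference below. Hair matrix and shaft markers fell in 15 of 15 cases, and their summed signal ranged from 54290.4 to 69644 in wild-type and from 18769.5 to 33284 in knock-in. Myeloid markers rose in 8 of 11 cases, with sums from 6239.8 to 9097 and from 22312 to 30069. Stress keratins rose in 3 of 4 cases and fell in 1, with sums from 8332 to 10269 and from 22299.8 to 30672. Endothelial markers rose in 4 of 5, with sums from 427 to 547 and from 915 to 1018. Differences were positive for 11 of 11 myeloid and 5 of 5 endothelial markers, those that did not pass included. Melanocyte markers fell in 4 of 4 cases, with sums from 1507 to 3283 and from 559 to 1021, and skeletal muscle markers in 4 of 8, with sums from 36432 to 57501 and from 21594 to 36756. Of 6 fibroblast markers 1 rose and 1 fell, of 4 adipocyte markers 1 rose, and of 2 tested lymphocyte markers 1 fell. The part of these markers in the results below was not tested. In whole skin, fewer cells of a type and less RNA per cell cannot be told apart. Wild-type array 1 stood apart from the other two wild-type arrays in the genes described here: its signal was the highest of the 3 for all 18 tested mitosis genes, against 34.5% of all genes tested. Results on S phase and mitosis are therefore given with and without it.

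Of the 40 tested members, 7 rose and 5 fell in knock-in. Over all 11670 genes tested, 31.2% differed at this threshold (14.8% were higher in knock-in and 16.3% lower), and the members' own shares, 17.5% and 12.5%, are near those. The same 12 members were those whose groups did not overlap, where the groups of 47.1% of all genes did not overlap. Among G1 cyclins and kinases, 3 rose and 2 fell. Among CDK inhibitors, 3 of 4 fell. Among 10 tested S phase genes 2 rose, and among 18 tested mitosis genes 2 rose, with 0 lower in either role. These shares, 20.0% and 11.1% higher, stand beside 14.8% for all genes, and whether roles differ was not tested. The median log2 difference was 0.27 for S phase genes and 0.28 for mitosis genes, against -0.02 for all genes tested, -0.34 for the inhibitors and -0.00 for the G1 genes. Centring each array on its median, which raises all differences by about 0.13, turned the split of all genes from 1729 higher and 1907 lower into 2567 and 1202.

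**Figure D1:**
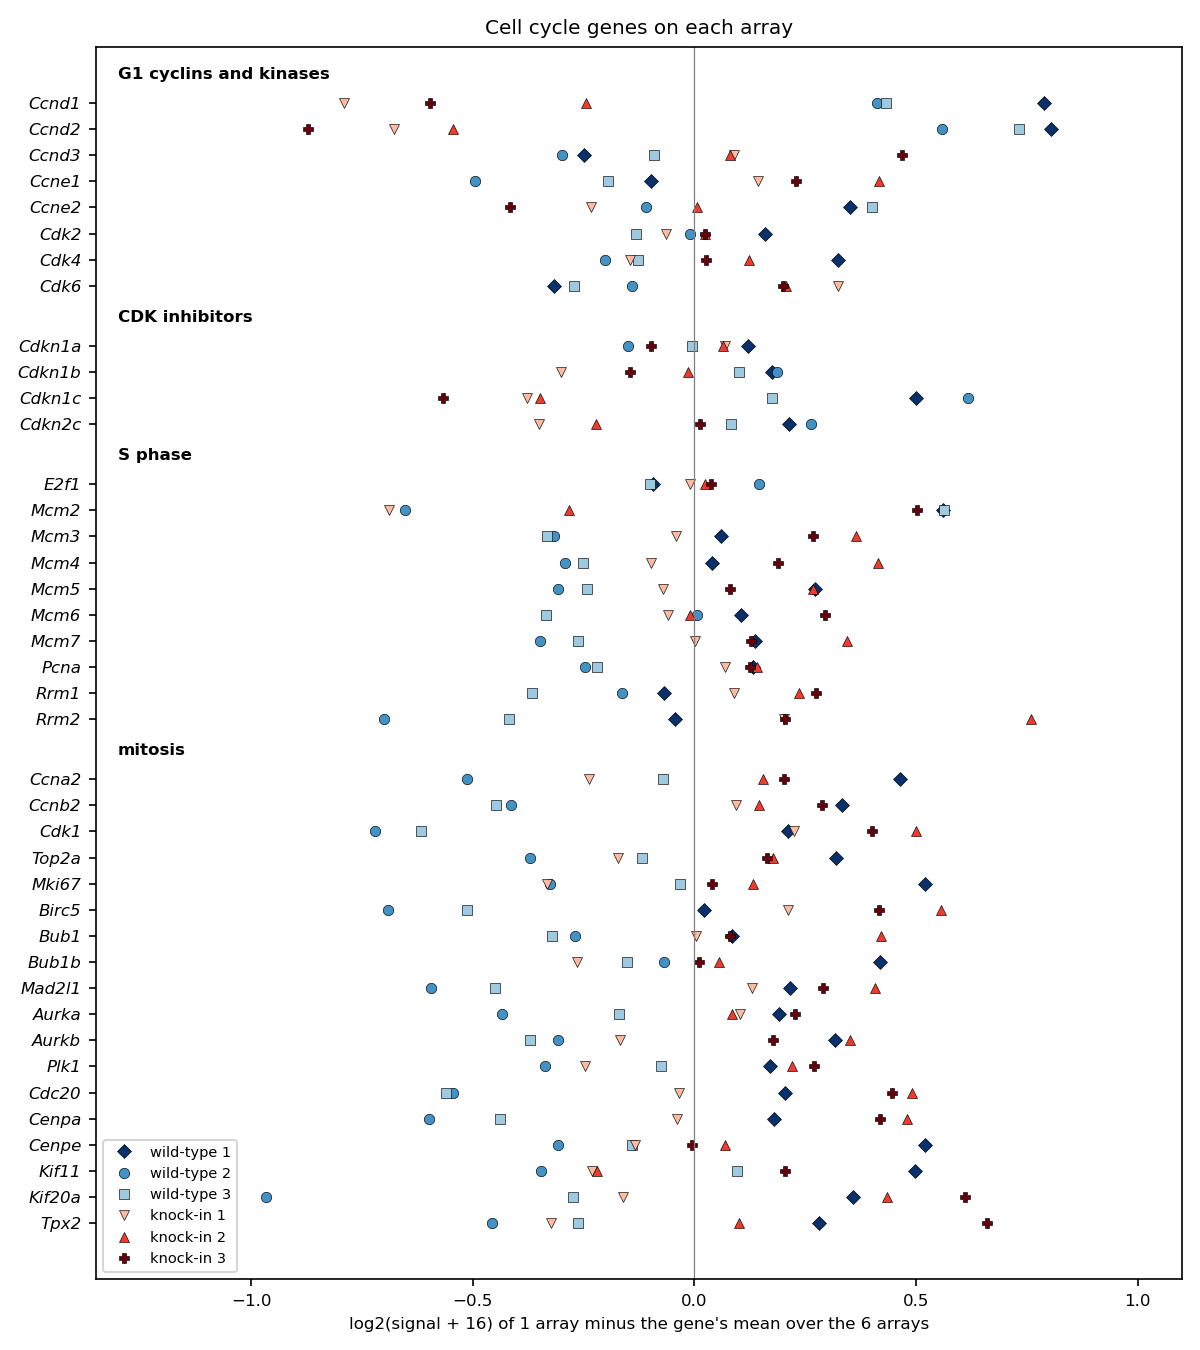
Log2(signal + 16) of each array minus the gene's mean over the 6 arrays, for the 40 tested members by role. Each symbol is 1 array. Ccnd1 and Ccnd2 separate with wild-type to the right, and in the mitosis block wild-type array 1 (dark blue diamonds) lies to the right of the other two wild-type arrays in all 18 rows.

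The D-type cyclins moved in opposite directions. Ccnd2 and Ccnd1 fell, while Ccnd3 and the kinase Cdk6 rose. Ccnd2 had signals of 2258, 1899 and 2144 on wild-type arrays 1, 2 and 3 and 797, 876 and 695 on knock-in arrays 1, 2 and 3. Every knock-in value lay far below every wild-type value. The means were 2100.1 ± 183 and 789 ± 90.9 (SD, n = 3), a log2 difference of -1.40 ± 0.11 (adjusted p = 7.86e-05), 2.63-fold lower in knock-in. Ccnd1 had signals of 1132, 868 and 881 in wild-type and 369, 545 and 424 in knock-in, with knock-in array 2 the highest of its group and wild-type array 1 the highest of all. Its log2 difference was -1.09 ± 0.16 (adjusted p = 0.00147), 2.12-fold lower. Ccnd1 and Ccnd2 kept their direction and their call under each of 18 other ways of processing the data.

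Ccnd3 had signals of 238, 229 and 267 in wild-type and 305, 303 and 401 in knock-in, with no overlap and with knock-in array 3 above the other five. Its log2 difference was 0.43 ± 0.13 (adjusted p = 0.0361). That call did not hold without wild-type array 1, 2 or 3 (adjusted p = 0.0787, 0.0919 and 0.0562) or without knock-in array 3 (0.114), nor without the filter on dim genes (0.0521), in a range from 2.94e-04 to 0.114 over 18 alternatives. Cdk6, the D-cyclin partner, had signals of 284, 323 and 293 in wild-type and 451, 415 and 413 in knock-in. All knock-in values exceeded all wild-type values, and the log2 difference was 0.49 ± 0.09 (adjusted p = 0.00547), 1.40-fold higher, a call that held in all 18 alternatives. Cdk4, the other partner of D-type cyclins, overlapped between the groups, from 583 to 846 in wild-type and from 607 to 733 in knock-in. Its difference of 0.00 ± 0.15 has a 95% interval from -0.33 to 0.34.

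The array holds several probe sets for these genes, and most separated the groups in 1 direction per gene. All 7 probe sets of Ccnd2 were lower on every knock-in array than on any wild-type array, with log2 differences from -1.60 to -1.12. Of the 3 probe sets of Ccnd1, 2 separated the groups in the same direction, and the remaining one had signals of 309.7, 254 and 194 in wild-type and 161, 209 and 141 in knock-in, where knock-in array 2 lay above wild-type array 3. Of the 2 bright probe sets of Ccnd3, the dimmer one gave 55.6, 46.1 and 43.7 in wild-type and 136, 139.8 and 123 in knock-in, a log2 difference of 1.21 that is larger than that of the main one. All 3 probe sets of Cdk6 were higher on every knock-in array. The dimmest of them lay near the array medians of 37.7 to 45.8. It gave 41.3, 36.8 and 39.6 in wild-type and 53.5, 68.8 and 42.8 in knock-in.

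**Figure D2:**
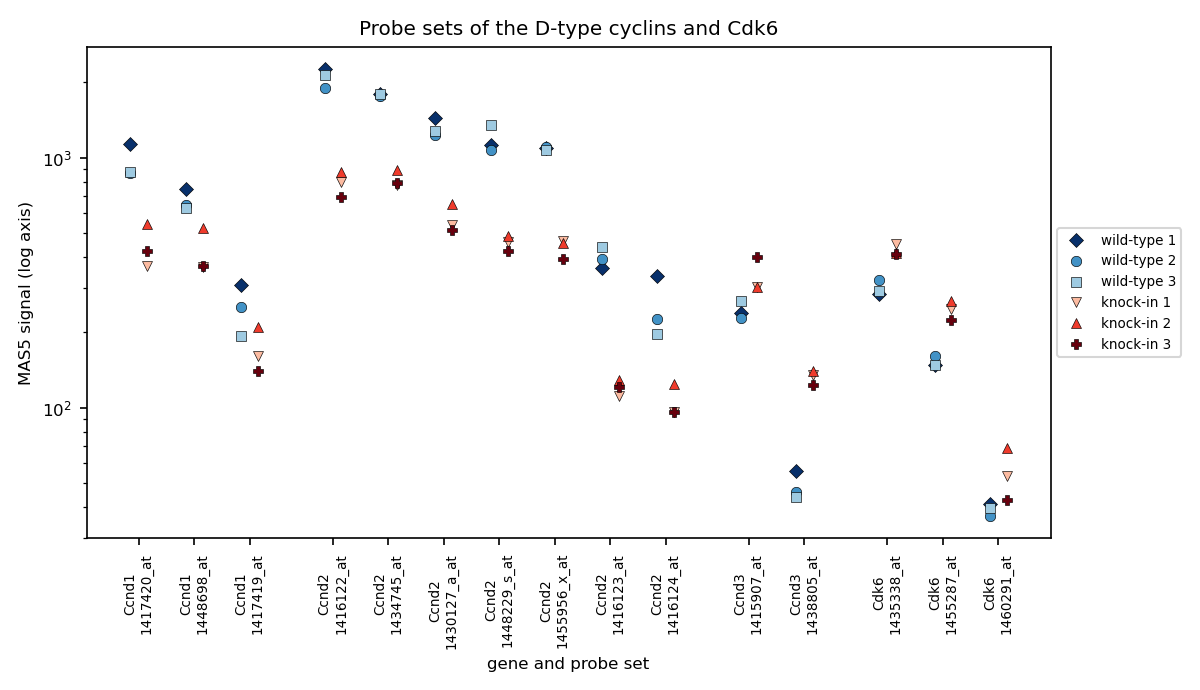
MAS5 signal on a log axis for each bright probe set of Ccnd1, Ccnd2, Ccnd3 and Cdk6, with 1 symbol per array (wild-type left, knock-in right within each probe set). All 7 Ccnd2 probe sets are lower in knock-in and all 3 Cdk6 probe sets are higher; levels of different probe sets are not comparable.

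Of the E-type cyclins, which activate Cdk2 at the start of S phase, Ccne1 passed and Ccne2 did not. Ccne1 had signals of 62.0, 43.3 and 56.9 in wild-type and 76.2, 95.4 and 81.9 in knock-in, close to the array medians of 37.7 to 45.8. The groups did not overlap, and the log2 difference was 0.53 ± 0.15 (adjusted p = 0.0312). The second probe set of Ccne1 gave 66.3, 34.0 and 32.3 in wild-type and 65.5, 56.1 and 51.7 in knock-in and overlapped. The call was lost in 10 of 17 alternatives, among them the removal of wild-type array 2 (adjusted p = 0.0828) or 3 (0.0705) or of any knock-in array (0.0504, 0.0971 and 0.0779), in a range from 0.0150 to 0.280. Ccne2 had signals of 155, 108 and 161 in wild-type and 97.9, 118 and 84.4 in knock-in. Wild-type array 2 fell among the knock-in values, and the difference of -0.43 ± 0.17 did not pass (adjusted p = 0.0918), though it did without that array (0.0260). Cdk2 overlapped as well, from 262 to 324 and from 275 to 294, with a difference of -0.01 ± 0.10 and a 95% interval from -0.25 to 0.23.

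Among the CDK inhibitors, Cdkn1c had the largest difference. It encodes a Cip/Kip inhibitor tied to cell cycle exit during differentiation. Its signals were 269, 294 and 212 on wild-type arrays 1, 2 and 3 and 139, 143 and 120.1 on knock-in arrays 1, 2 and 3. The lowest wild-type value lay well above the highest knock-in value, the means were 258 ± 41.9 and 134 ± 12.1 (SD, n = 3), and the log2 difference was -0.86 ± 0.14 (adjusted p = 0.00227), 1.82-fold lower. That call held in all 18 alternatives. Cdkn1b, a Cip/Kip inhibitor of quiescent cells, had signals of 1390.2, 1400.1 and 1319 in wild-type and 994, 1218 and 1110.2 in knock-in, and its groups were separate with a log2 difference of -0.31 ± 0.10 (adjusted p = 0.0405). Cdkn2c, an INK4 inhibitor of Cdk4 and Cdk6, had signals of 522, 541 and 475 in wild-type and 348, 381 and 452 in knock-in, and knock-in array 3 came nearest to the wild-type range. Its log2 difference was -0.37 ± 0.11 (adjusted p = 0.0374).

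The calls of Cdkn1b and Cdkn2c were each lost in 10 of 18 alternatives. Without wild-type array 1, 2 or 3 the adjusted p of Cdkn1b was 0.0839, 0.0930 and 0.0792, and without knock-in array 1 or 3 it was 0.133 and 0.102, in a range from 0.0163 to 0.277. For Cdkn2c the same wild-type omissions gave 0.0797, 0.0958 and 0.0585, and omission of knock-in array 1 or 2 gave 0.128 and 0.0901, in a range from 0.0243 to 0.202. Cdkn1a, the Cip/Kip inhibitor induced by p53, had signals of 1160.2, 960.2 and 1062 in wild-type and 1119.6, 1116 and 995 in knock-in. The groups overlapped throughout, with a log2 difference of 0.02 ± 0.10 and a 95% interval from -0.20 to 0.25. Of 16 tested p53 target genes, 2 rose and 0 fell: Pmaip1, a pro-apoptotic BH3-only protein (0.94 ± 0.12), and Mdm2, the ubiquitin ligase of p53 (0.32 ± 0.10), with a median of 0.04 over the 16. The share that rose, 12.5%, stands beside 14.8% of all genes.

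Of the 10 tested S phase genes, 2 rose, and these encode both subunits of ribonucleotide reductase. The other 8 did not pass. Rrm2, the regulated subunit of the enzyme that makes deoxyribonucleotides, had signals of 595, 372 and 456 on wild-type arrays 1, 2 and 3 and 709, 1051 and 710.1 on knock-in arrays 1, 2 and 3. Knock-in array 2 was the highest and wild-type array 1 the highest of its group, yet below every knock-in array. The means were 474 ± 113 and 823 ± 197 (SD, n = 3), a log2 difference of 0.78 ± 0.20 (adjusted p = 0.0181), 1.71-fold higher. All 3 probe sets of Rrm2 separated the groups, with differences from 0.78 to 0.94. Rrm2 lost its call in 2 of 18 alternatives, among them the removal of wild-type array 3 (adjusted p = 0.0636), in a range from 0.00936 to 0.0636. Rrm1, the large subunit, had signals of 449.8, 419.6 and 363 in wild-type and 503, 559 and 574 in knock-in, and its log2 difference was 0.40 ± 0.11 (adjusted p = 0.0226). It lost its call in 6 of 18 alternatives, among them the mean over its probe sets (adjusted p = 0.681), the second brightest probe set (0.701) and the removal of wild-type array 3 (0.0795) or knock-in array 2 (0.0611) or 3 (0.0839), in a range from 0.0102 to 0.701. Its second probe set gave 514, 277 and 275 in wild-type and 321, 407 and 396 in knock-in and overlapped.

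The Mcm genes encode the subunits of the replicative helicase, and Mcm3, Mcm4, Mcm5, Mcm6 and Mcm7 had positive differences that did not pass. Mcm3 had signals of 246, 186 and 184 in wild-type and 228, 308 and 287 in knock-in, a difference of 0.39 ± 0.15 (adjusted p = 0.0782). Mcm4 had signals of 429, 338 and 348 in wild-type and 389, 562 and 478 in knock-in, a difference of 0.34 ± 0.15 (adjusted p = 0.118). Mcm7 had signals of 989, 702 and 747 in wild-type and 899, 1145 and 982 in knock-in, a difference of 0.32 ± 0.14 (adjusted p = 0.132). In Mcm3, Mcm4 and Mcm7 wild-type array 1 lay inside the knock-in range and wild-type arrays 2 and 3 below it. Pcna, the sliding clamp of DNA polymerase, had signals of 2148, 1649 and 1679.8 in wild-type and 2056, 2161 and 2137 in knock-in, and again only wild-type array 1 reached the knock-in range (0.22 ± 0.11, adjusted p = 0.169). Mcm5 and Mcm6 had differences of 0.18 ± 0.16 and 0.15 ± 0.14, with overlap. Mcm2 ranged from 111 to 279 in wild-type and from 108 to 267 in knock-in, and its difference of -0.31 ± 0.38 is the least precise of the S phase genes. E2f1, a transcription factor that opens the S phase programme, had a difference of 0.03 ± 0.13 on signals from 58.1 to 71.9. Tyms, the thymidylate synthase, was below the array median on all 6 arrays, with signals from 19.3 to 28.3 and overlapping groups (two-sided exact permutation p = 0.5, where 3 against 3 cannot go below 0.1).

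Mitosis genes spread widely within wild-type. Birc5, which encodes survivin of the chromosomal passenger complex, had signals of 255, 149 and 171 on wild-type arrays 1, 2 and 3 and 293, 377 and 340.3 on knock-in arrays 1, 2 and 3. The wild-type value nearest to knock-in was that of array 1. The means were 192 ± 55.8 and 337 ± 41.8 (SD, n = 3), a log2 difference of 0.79 ± 0.18 (adjusted p = 0.0124), 1.73-fold higher. Birc5 did not pass without wild-type array 3 (adjusted p = 0.0530), in a range from 0.00222 to 0.0530 over 17 alternatives. Cdk1, the mitotic kinase, had signals of 392, 198 and 214 in wild-type and 396, 483 and 449 in knock-in. Wild-type array 1 came within a few units of knock-in array 1, while wild-type arrays 2 and 3 lay far below. The log2 difference of Cdk1 was 0.75 ± 0.23 (adjusted p = 0.0343), 1.68-fold higher. It did not pass without wild-type array 2 (0.0940) or 3 (0.125) or without knock-in array 1, 2 or 3 (0.0521, 0.0858 and 0.0971), nor without the filter (0.0541), in a range from 0.00103 to 0.125 over 18 alternatives.

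Mad2l1, a spindle checkpoint protein, had signals of 287, 157 and 175 in wild-type and 269.8, 330.2 and 303 in knock-in. Cdc20, the activator of the anaphase-promoting complex that the checkpoint inhibits, had signals of 664, 388 and 384 in wild-type and 559, 812 and 788 in knock-in. Cenpa, the centromeric histone, had signals of 371, 209.6 and 236 in wild-type and 316, 460.0 and 440.5 in knock-in. In all 3 genes wild-type array 1 lay within the knock-in range and the other two wild-type arrays below it. Their log2 differences were 0.55 ± 0.20, 0.60 ± 0.22 and 0.57 ± 0.21, and none passed over all 6 arrays (adjusted p = 0.0660, 0.0714 and 0.0742). Bub1, a checkpoint kinase, had signals of 118, 89.1 and 85.4 in wild-type and 111, 154 and 118 in knock-in, a difference of 0.34 ± 0.16 (adjusted p = 0.148).

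The commonly used proliferation markers overlapped between the groups. Mki67, the Ki-67 antigen of cycling cells, named after its values were seen, had signals of 1036, 569 and 701 in wild-type and 567, 788 and 738 in knock-in. Wild-type array 1 was the highest of all 6 and wild-type array 2 close to knock-in array 1, and the difference was -0.11 ± 0.21 with a 95% interval from -0.59 to 0.37. Top2a, the topoisomerase that untangles chromosomes, ranged from 350.3 to 575 in wild-type and from 404 to 519 in knock-in (0.11 ± 0.18, interval from -0.29 to 0.52). The cyclins Ccna2 and Ccnb2 had differences of 0.08 ± 0.23 and 0.35 ± 0.20. The mitotic kinases Aurka, Aurkb and Plk1 had differences of 0.28 ± 0.16, 0.24 ± 0.21 and 0.16 ± 0.18. Among motor and spindle proteins, Kif20a and Tpx2 had positive differences (0.59 ± 0.33 and 0.29 ± 0.27) and Kif11 and Cenpe negative ones (-0.16 ± 0.22 and -0.05 ± 0.21), as had the checkpoint kinase Bub1b (-0.13 ± 0.17). None of these 12 genes passed, and adjusted p lay between 0.204 and 0.883.

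The comparison of mitosis genes depended on the wild-type array it was made with. The knock-in mean of log2(signal + 16) was above wild-type array 2 for 18 of 18 mitosis genes and above wild-type array 3 for 16, but above wild-type array 1 for only 6. For all genes tested those shares were 47.3%, 48.4% and 47.9%. The median of knock-in mean minus array over the 18 genes was 0.56 against array 2, 0.45 against array 3 and -0.11 against array 1. Knock-in array 1 was the lowest knock-in array for 17 of the 18 and for all 10 tested S phase genes, against 37.4% of all genes. For S phase genes wild-type array 1 was the highest wild-type array in 8 of 10. The median within-group SD of log2(signal + 16) for mitosis genes was 0.42 in wild-type and 0.23 in knock-in, against 0.15 and 0.13 for all genes tested.

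**Figure D3:**
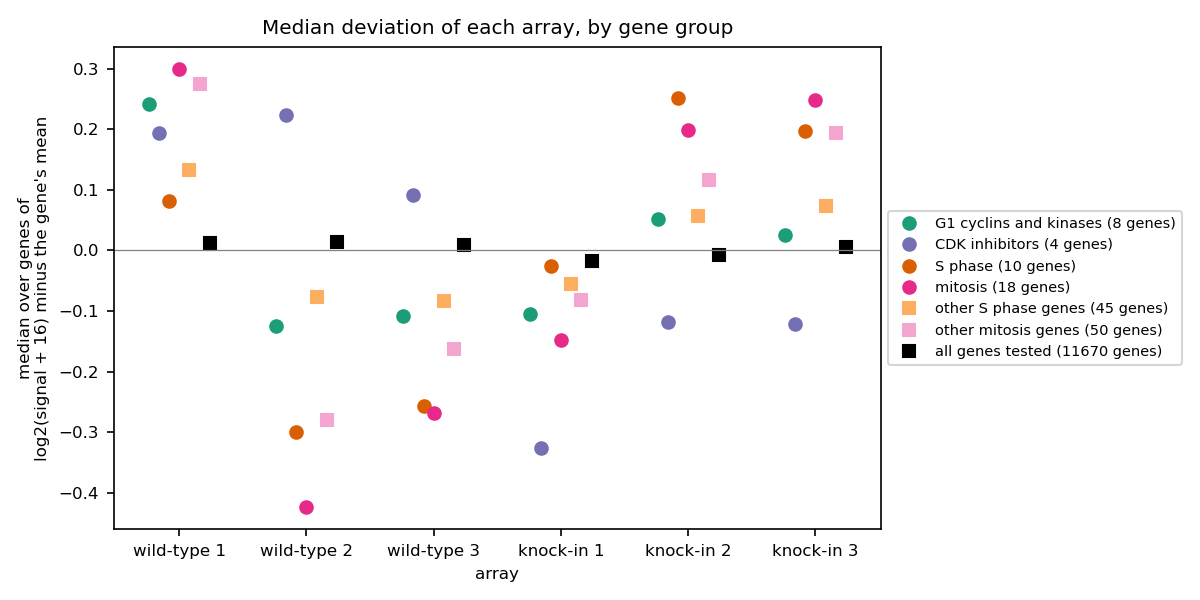
Median, over the genes of a group, of log2(signal + 16) on an array minus the gene's mean over the 6 arrays. Mitosis genes (pink circles) have medians of 0.30 on wild-type array 1 and -0.42 and -0.27 on wild-type arrays 2 and 3, while all genes tested (black squares) stay near 0 on every array.

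Wild-type array 1 was singled out for its high signal in these mitosis genes. A fit without it raises their differences by construction, and its p-values are no separate support for them. In that fit, with 2 wild-type and 3 knock-in arrays, 8 of 18 mitosis genes rose and 0 fell, where 13.8% of all genes were higher and 15.0% lower. These were Birc5, Cdk1, Mad2l1, Cdc20, Cenpa, Ccnb2, Aurka and Kif20a. Cdk1 then had a log2 difference of 1.04 ± 0.12 (adjusted p = 0.00103), Birc5 of 1.00 ± 0.13 (adjusted p = 0.00222) and Mad2l1 of 0.80 ± 0.12 (adjusted p = 0.00385). Cdc20 and Cenpa had differences of 0.85 ± 0.16 and 0.80 ± 0.17 (adjusted p = 0.00851 and 0.0117). Of 10 S phase genes 5 rose and 0 fell: Rrm2, Rrm1, Mcm3, Mcm7 and Pcna. Wild-type array 1 was the highest wild-type array for 8 of these 10, these 5 among them. Their differences, too, are raised by construction, and the count is no separate support. Mki67 and Top2a still did not pass (0.13 ± 0.16 and 0.30 ± 0.14). Without wild-type array 2 or 3, in contrast, 1 and 0 mitosis genes rose, and without knock-in array 1, 2 or 3 it was 3, 1 and 1. The number of S phase genes that rose was 2 and 0 without wild-type array 2 or 3. Without knock-in array 1, 2 or 3 it was 4, 1 and 1. Over all genes tested, too, more passed without wild-type array 1 than without any other array. The counts of these fits are to be read against that.

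**Figure D4:**
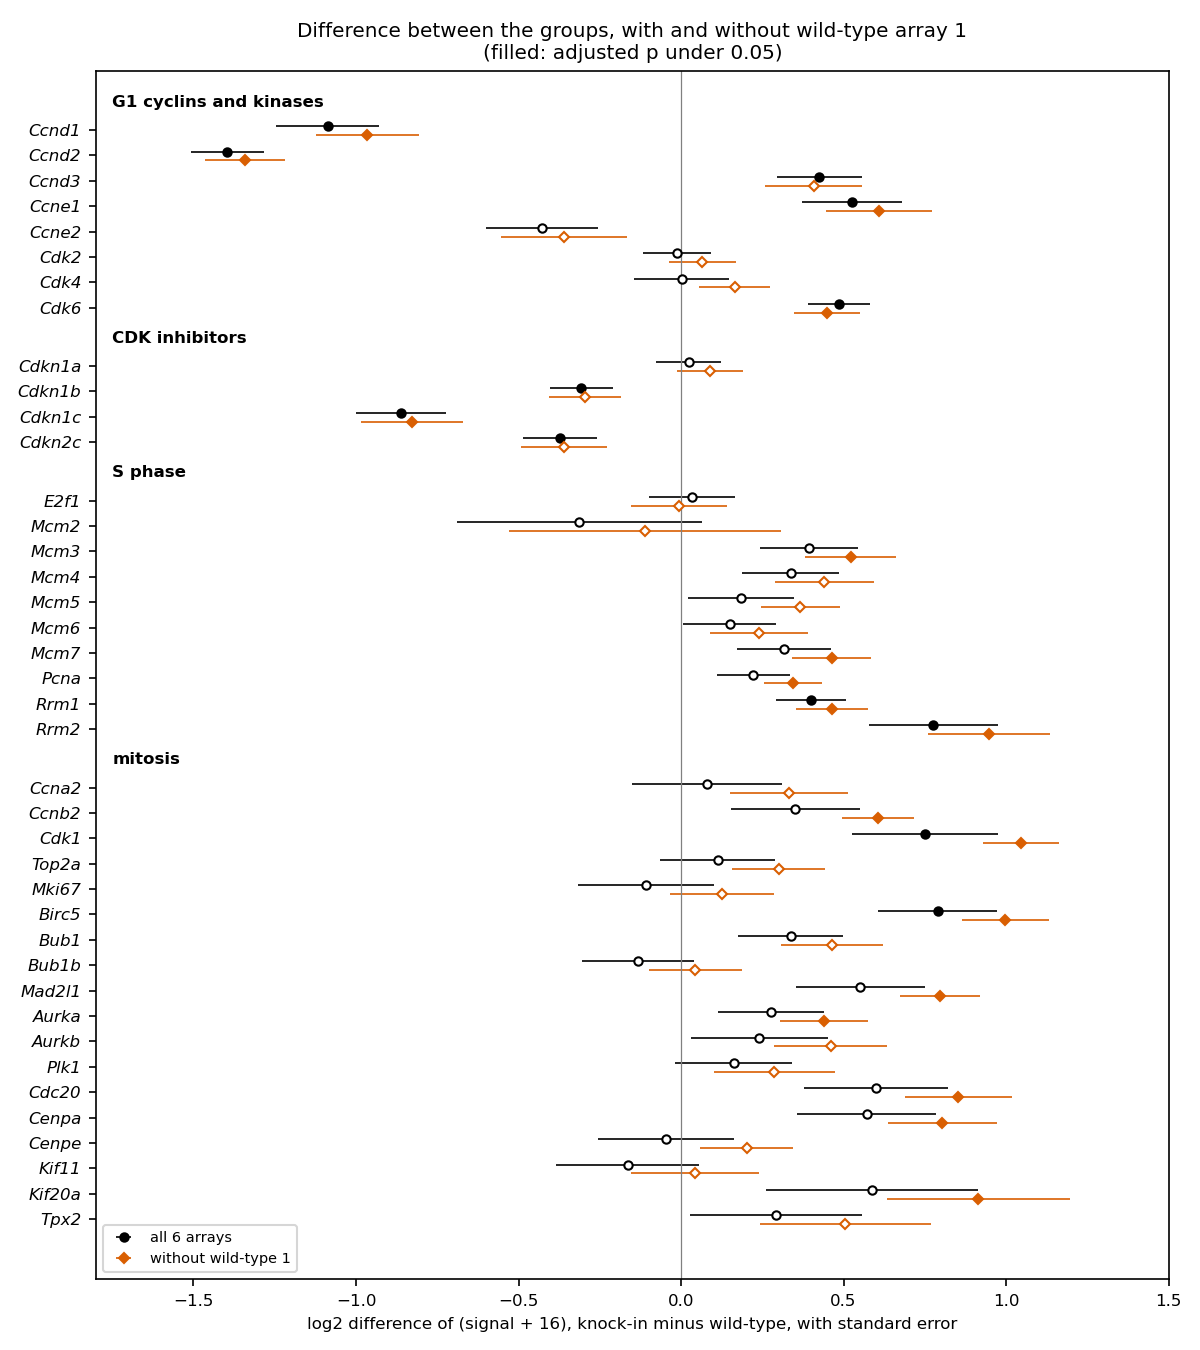
Log2 difference of (signal + 16), knock-in minus wild-type, with its standard error, for the 40 tested members over all 6 arrays (black circles) and without wild-type array 1 (orange diamonds); filled symbols have an adjusted p under 0.05. Ccnd1, Ccnd2 and Cdkn1c stay far below 0 in both fits, while 8 mitosis genes are filled without wild-type array 1 and 2 with it. That array was left out for its high signal in the mitosis genes, which raises their differences by construction.

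Wild-type array 1 also differed in markers of other cells. It was the lowest wild-type array for 6 of 6 fibroblast, 4 of 4 adipocyte and 7 of 8 skeletal muscle markers. The same held for 8 of 11 myeloid, 4 of 5 endothelial and 2 of 2 lymphocyte markers. It was the highest for 4 of 4 melanocyte and 3 of 4 stress keratin markers. Over all genes tested it was the lowest for 36.8% and the highest for 34.5%. Of 9 epidermal keratinocyte markers it was the lowest for 3 and the highest for 2. The summed signal of melanocyte markers was 3283 on it and 1507 and 1688 on wild-type arrays 2 and 3. Skeletal muscle markers summed to 36432, 57501 and 43953, and adipocyte markers to 2022, 4129 and 3684. Hair matrix and shaft markers summed to 64477, 54290.4 and 69644, so that array 1 lay between the other two. Among knock-in arrays the hair sum was 18769.5, 33284 and 26182, lowest on array 1. The part of these markers in the values above was not tested.

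Genes of the same pathway outside the list were compared in the same fit. The shares of all genes that rose and fell, 14.8% and 16.3%, are the background of these counts. Of 18 other tested G1 genes 1 rose (5.56%) and 4 fell (22.2%). Those that fell were Mycn, a Myc factor of progenitor cells (-1.61 ± 0.23), Skp2, a ubiquitin ligase subunit that marks Cdkn1b for destruction (-0.64 ± 0.15), the activator E2f2 (-0.74 ± 0.21) and the pocket protein Rb1 (-0.41 ± 0.12). The E2F partner Tfdp1 rose (0.44 ± 0.12). Of 6 other tested inhibitors and checkpoint genes 2 rose, the INK4 inhibitor Cdkn2d (0.51 ± 0.09) and the phosphatase Cdkn3 (0.81 ± 0.16), opposite to Cdkn2c and Cdkn1c. Of 45 other tested S phase genes 2 rose (4.44%, below the share of all genes) and 0 fell, and the median difference was 0.02 with 25 of 45 positive. Those that rose were Cdt1, which loads the helicase (0.73 ± 0.14), and its inhibitor Gmnn (0.52 ± 0.13). Of 50 other tested mitosis genes 3 rose (6.00%, also below it) and 1 fell, and the median was 0.14 with 33 of 50 positive. The 4 genes that passed were Anln, a scaffold of the cleavage furrow, at 0.68 ± 0.17, Incenp, a chromosomal passenger protein, at 0.55 ± 0.15, Cks2, a CDK-binding subunit, at 0.48 ± 0.16, and Mybl2, a transcription factor of the cycle, at -0.71 ± 0.21. In these 50 genes, too, wild-type array 1 was the highest wild-type array for 44. Leaving it out raises the differences of those 44 by construction, so the count without it is no separate support. Without it 16 rose and 0 fell, where 13.8% of all genes were higher and 15.0% lower. Without wild-type array 2 or 3 it was 1 and 0 higher and 2 and 0 lower. Without knock-in array 1, 2 or 3 it was 6, 1 and 0 higher. Fewer of all genes, too, passed in these other fits than without wild-type array 1.

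The genes were also compared by the letters of their promoters, since cell cycle promoters are known for 3 elements: CCAAT boxes, E2F sites and the cell cycle homology region that binds the repressor and activator complexes of mitotic genes. The RefSeq promoter table (GRCm38.p6, 300 bases around each start) held 37 promoters of 33 members, including Ccnb1. Ccnd1, Ccnd2, Ccne2, Cdkn1c, Mcm4, Ccna2, Aurkb, Kif20a and Tpx2 are not among them. It was searched on both strands for CCAAT, for TTTGAA and for 4 forms of the E2F site, TTTGGCGC, TTTCCCGC, TTTCGCGC and TTTGCCGC. Matches overlapped once each in 3 promoters: E2F forms on opposite strands in Mcm5 and Mcm6, and an E2F form with CCAAT in Mcm7. TTTGAA stood in 10 of 15 mitosis promoters (66.7%), 1 of 11 S phase promoters (9.09%) and 0 of the 11 promoters held for 5 G1 genes and 3 inhibitors, against 17.9% of all 32851 promoters. An E2F form stood in 4 of 11 S phase promoters (36.4%) and 1 of 15 mitosis promoters (6.67%), against 2.26%. CCAAT stood in 13 of 15 mitosis promoters (86.7%) and 9 of 11 S phase promoters (81.8%), against 37.4%. A match describes letters, not binding.

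To show how these elements lie in single genes, 4 promoters are printed 5′ to 3′ with the matches in capitals (ATTGG is CCAAT on the other strand). Rrm2, Rrm1 and Cdk1 have the smallest p among members with a match, and Cdc20 was chosen after its values were seen. Rrm2 lies at chr12:24708004-24708303, plus strand, Rrm1 at chr7:102441445-102441744, plus strand, Cdk1 at chr10:69352863-69353162, minus strand, and Cdc20 at chr4:118437294-118437593, minus strand. Rrm2 and Rrm1 hold CCAAT alone, Cdk1 all 3 kinds, and Cdc20 CCAAT and TTTGAA.
Rrm2: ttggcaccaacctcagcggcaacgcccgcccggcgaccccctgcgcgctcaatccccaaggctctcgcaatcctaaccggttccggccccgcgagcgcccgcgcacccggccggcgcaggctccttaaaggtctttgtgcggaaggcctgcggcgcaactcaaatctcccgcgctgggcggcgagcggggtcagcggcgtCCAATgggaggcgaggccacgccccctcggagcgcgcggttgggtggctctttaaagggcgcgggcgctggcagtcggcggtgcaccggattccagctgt
Rrm1: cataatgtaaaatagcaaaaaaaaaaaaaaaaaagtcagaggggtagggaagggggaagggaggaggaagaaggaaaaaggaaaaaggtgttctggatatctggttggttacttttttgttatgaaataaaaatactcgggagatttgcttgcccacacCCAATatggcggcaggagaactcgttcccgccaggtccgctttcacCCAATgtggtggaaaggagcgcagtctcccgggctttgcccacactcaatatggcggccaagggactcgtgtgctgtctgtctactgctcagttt
Cdk1: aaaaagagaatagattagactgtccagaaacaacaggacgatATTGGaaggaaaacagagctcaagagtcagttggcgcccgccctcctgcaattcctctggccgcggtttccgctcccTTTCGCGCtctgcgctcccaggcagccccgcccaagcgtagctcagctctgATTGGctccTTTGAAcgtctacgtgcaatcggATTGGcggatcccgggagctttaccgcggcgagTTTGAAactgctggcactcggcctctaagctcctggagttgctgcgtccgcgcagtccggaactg
Cdc20: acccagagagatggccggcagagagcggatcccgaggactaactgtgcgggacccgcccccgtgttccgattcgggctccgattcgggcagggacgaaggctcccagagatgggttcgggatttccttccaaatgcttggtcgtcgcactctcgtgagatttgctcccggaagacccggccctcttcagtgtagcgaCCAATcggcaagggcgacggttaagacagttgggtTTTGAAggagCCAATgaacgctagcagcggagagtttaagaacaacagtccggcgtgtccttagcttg
Rrm2, Rrm1 and Cdk1 rose over the 6 arrays. Cdc20 did not pass over them (adjusted p = 0.0714). Its call without wild-type array 1 comes from a fit that raises the differences of mitosis genes by construction. Birc5, which rose over the 6 arrays, holds none of the searched letters in its window.

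**Figure D5:**
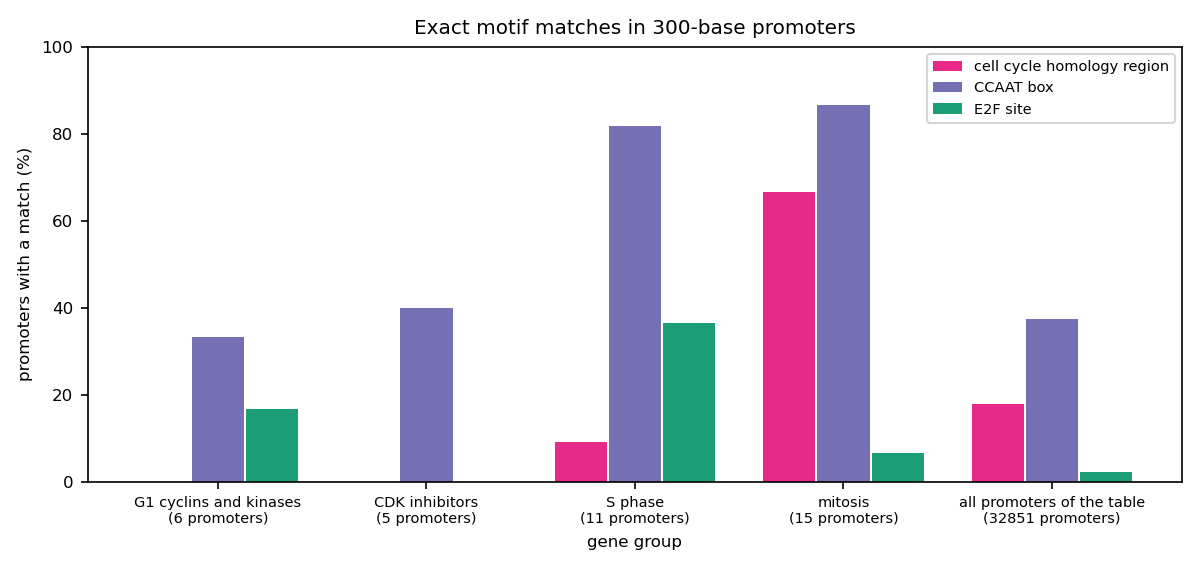
Share of promoters with an exact match on either strand, in percent, for each group of members and for all promoters of the table. The cell cycle homology region letters reach 66.7% in mitosis promoters against 17.9% in all promoters.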

How the data were processed

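Signal intensity was deposited as 1 linear value per probe set and array for 6 single-channel Affymetrix arrays of mouse skin, made with MAS5 per the submitters' processing notes. MAS5's version was not given in the sources used here. The deposited intensities have the same 2% trimmed mean, 150, on every array, so no further scaling was applied. Of 45101 probe sets, 64 controls were left out, and 34945 have 1 gene symbol in the platform annotation. Genes above the array's median signal on at least 3 of 6 arrays were tested, and 6523 dim genes were left out. The test was limma 3.58.1 in R 4.3.3 (lmFit, eBayes with trend, two-sided) on log2(signal + 16). The offset understates changes of dim genes. Probe sets of the x, s and a types may read other transcripts. Ccne1, Rrm2, Birc5, Cdc20, Cenpa, Kif20a, Mcm3 and Mcm7 are among the members represented by such probe sets. The median standard error was 0.13, and the number of arrays limits precision. The procedure was tested on simulated data. The members and all gene lists were chosen with earlier results of these data known. All members are named, with values on every array for up to 6 per role with the smallest p and for each inhibitor; from other lists, up to 3 genes with the smallest p, plus Rb1, Tfdp1 and other genes behind a small count, chosen after their values were seen. The alternatives were other offsets, filters, scalings, variance models, probe sets, a replicate block and leaving out each array.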

Additional observations from a re-analysis of the deposited data

How the results depend on the processing

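Limits first: 3 arrays per group, MAS5 values without detection calls, and sex-linked signal that differs with genotype. Ccnd1, Ccnd2, Cdk6 and Cdkn1c kept direction and call in all 18 alternatives. With an array left out, all genes past the threshold numbered 2394 to 3367 (3636 with all), with 2394 without wild-type array 3 and 2484 without knock-in array 3. The ranges were 1 to 2 for G1 genes that rose, 1 to 2 for inhibitors that fell, 0 to 5 for S phase genes that rose and 0 to 8 for mitosis genes that rose. Without a filter, 1 G1 gene and 1 mitosis gene rose and 1 inhibitor fell. Median centring raised the median difference of all genes by 0.13 and turned 1729 higher and 1907 lower genes into 2567 and 1202. Under it 1 inhibitor fell and 5 mitosis genes rose, which are to be read against that shift. Array weights gave 5 mitosis genes, and without a variance trend 1 inhibitor fell. The mean over probe sets gave 1 S phase gene, the second brightest probe set 1 higher and 1 lower (Mcm6), and leaving out shared probe sets 1 mitosis gene. Birc5 has only a probe set of the a type, so it was not in that last fit. The replicate numbers did not pair the arrays: deviations of same-numbered arrays correlated at -0.25, -0.41 and -0.02. With the replicate block 2450 genes passed, 1 inhibitor fell, 0 S phase genes and 1 mitosis gene rose; Rrm2 and Rrm1 then had an adjusted p of 0.0558 and 0.0784. The cause of these changes, the smaller number of arrays or genes included, was not tested.

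The members whose sign turned had not passed with the main settings, and of the turned values 1 passed (Mcm6, second brightest probe set, adjusted p = 0.0288). Their log2 differences were as follows. Cdk2 had 0.12 (median centring), 0.033 (array weights) and -0.080 to 0.065 (arrays left out). Cdk4 had -0.031 (quantile normalization), -0.060 (mean over probe sets), -0.068 (without shared probe sets), -0.11 (second brightest probe set) and -0.098 to 0.17 (arrays left out). Cdkn1a had -0.033 (quantile normalization), -0.020 (mean over probe sets), -0.064 (without shared probe sets), -0.064 (second brightest probe set) and -0.045 to 0.090 (arrays left out). E2f1 had -0.19 (without shared probe sets), -0.19 (second brightest probe set) and -0.0095 to 0.11 (arrays left out). Mcm2 had 0.034 (without shared probe sets) and 0.034 (second brightest probe set). Mcm6 had -0.17 (mean over probe sets) and -0.41 (second brightest probe set). Ccna2 had -0.16 to 0.33 (arrays left out). Top2a had -0.11 (mean over probe sets), -0.42 (without shared probe sets), -0.42 (second brightest probe set) and -0.045 to 0.30 (arrays left out). Mki67 had 0.024 (median centring) and -0.30 to 0.13 (arrays left out). Bub1b had 0.18 (second brightest probe set) and -0.24 to 0.044 (arrays left out). Cenpe had 0.066 (quantile normalization), 0.085 (median centring), 0.017 (array weights), 0.077 (mean over probe sets), 0.20 (second brightest probe set) and -0.21 to 0.20 (arrays left out). Kif11 had 0.11 (without shared probe sets), 0.11 (second brightest probe set) and -0.38 to 0.043 (arrays left out). Tpx2 had -0.096 (mean over probe sets) and -0.10 (second brightest probe set).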

Other observations

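For a few members, probe sets of the same gene did not behave alike. Mcm6 had a main probe set with overlapping groups, whereas a second one gave 314, 241 and 291 in wild-type and 201, 209.8 and 209 in knock-in, lower on every knock-in array. Top2a had overlapping groups with its main probe set, whereas a second one gave 109.7, 75.2 and 86.8 in wild-type and 70.2, 69.0 and 51.0 in knock-in, also lower on every knock-in array. Which of them reads the transcript of interest was not tested.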
